A study of Mus musculus with 6 samples.

Results

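Apol7c, Serpinb10, Sidt1, Alox5 and Gpr141 are 5 of the 19937 mouse genes measured in this study. They were chosen by their measured values, as large rises with the compound 79-6 outside the classical battery of the aryl hydrocarbon receptor (AhR). Their difference between 79-6 and DMSO is therefore a description here, given with its standard error (SE) and with no test.

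Thy1.2+ cells were taken with magnets from E17.5 fetal thymi of Rag1-/- mouse embryos, and their RNA was run on 6 one-colour Affymetrix whole-transcript arrays. The first group (fresh) was unstimulated cells at 0 h. The second (DMSO) was cells stimulated for 40 h with anti-CD3 in the vehicle DMSO, and the third (79-6) was cells stimulated for 40 h with anti-CD3 and 50 µM 79-6, a small molecule that blocks the BTB domain of Bcl6, a repressor of transcription. Each group had 2 arrays, all 3 groups lack Rag1, and the series text, not the sample labels, states that the stimulated thymi were kept in organ culture. Rag1 is needed to rearrange T cell receptor genes, and thymocytes without it stop before beta-selection, so antibody to CD3 stands in for the missing receptor signal. The labels do not say that replicates came from separate cultures, so errors and p-values measure the spread between these arrays, which may be technical. Differences between 79-6 and DMSO are those of 1 compound at 1 dose and 1 time.

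Array medians lay between 99.3 and 103.6 on the linear intensity scale, and replicate arrays correlated at 0.997 to 0.998 across genes. Thy1 lay between 12.78 and 13.26 (log2 intensity) on all 6 arrays, with means of 12.80 in fresh cells, 13.23 with DMSO and 13.07 with 79-6. Of the other T-lineage markers, 6 fell from fresh cells to DMSO, while Cd2 and Gata3 rose like Thy1, as given below. Over all genes, 475 were higher and 394 lower with 79-6 than with DMSO by limma at an adjusted p under 0.05 (called here), which is 4.36% of those tested (2.38% higher, 1.98% lower). That total was 113 without DMSO replicate 1, 93 without DMSO replicate 2 and 127 without 79-6 replicate 2. Between DMSO and fresh, 1773 genes were higher and 2129 lower, or 19.6% of those tested (8.89% higher, 10.7% lower). The median of all genes changed by 0.02 (log2) in both comparisons.

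The 5 genes have unlike functions. Apol7c belongs to the apolipoprotein L family, whose members act inside cells on membranes, and it has been described in dendritic cells. Serpinb10 (bomapin) is an intracellular inhibitor of serine proteases of the clade B serpins, known from blood-forming cells. Sidt1 is a membrane protein related to the channel that carries double-stranded RNA into nematode cells. Alox5 is the lipoxygenase that starts leukotriene synthesis from arachidonate, and Gpr141 is an orphan G protein-coupled receptor of leukocytes. The AhR is a transcription factor switched on by small ligands, which with its partner Arnt binds the letters GCGTG and induces Cyp1a1, Cyp1b1, Ahrr and Tiparp.

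Promoter sequences are shown for Apol7c and Alox5, which each hold a searched motif close to the start, for Serpinb10, which holds none, and for Cyp1a1 of the AhR list beside them. Each is the 250 bases before the RefSeq gene start in GRCm38.p6, 5′ to 3′ on the gene's strand: chr15:77533316-77533565 (minus strand) for Apol7c, chr1:107528753-107529002 (plus) for Serpinb10, chr6:116461179-116461428 (minus) for Alox5 and chr9:57697363-57697612 (plus) for Cyp1a1. Capitals mark TATAA in Apol7c, GGGCGG in Alox5 and the AhR core GCGTG in Cyp1a1.
Apol7c: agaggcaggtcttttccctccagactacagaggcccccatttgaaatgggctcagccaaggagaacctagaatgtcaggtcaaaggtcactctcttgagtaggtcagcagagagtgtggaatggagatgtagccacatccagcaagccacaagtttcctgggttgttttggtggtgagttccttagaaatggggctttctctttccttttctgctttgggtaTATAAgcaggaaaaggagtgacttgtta
Serpinb10: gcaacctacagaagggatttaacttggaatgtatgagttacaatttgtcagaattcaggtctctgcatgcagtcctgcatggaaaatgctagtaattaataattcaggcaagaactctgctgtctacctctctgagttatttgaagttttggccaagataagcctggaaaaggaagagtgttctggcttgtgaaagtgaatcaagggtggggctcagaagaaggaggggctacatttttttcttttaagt
Alox5: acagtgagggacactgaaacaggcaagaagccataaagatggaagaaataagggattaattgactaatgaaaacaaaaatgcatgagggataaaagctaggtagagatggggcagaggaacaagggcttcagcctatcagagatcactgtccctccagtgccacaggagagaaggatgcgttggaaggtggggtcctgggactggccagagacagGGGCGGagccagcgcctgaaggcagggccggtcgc
Cyp1a1: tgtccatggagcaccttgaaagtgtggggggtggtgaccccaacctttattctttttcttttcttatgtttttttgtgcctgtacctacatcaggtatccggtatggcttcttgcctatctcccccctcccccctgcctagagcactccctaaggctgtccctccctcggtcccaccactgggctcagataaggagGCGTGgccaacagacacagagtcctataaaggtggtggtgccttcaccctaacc

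Motifs were searched on both strands of windows of 300 bases, from 250 before to 50 after the start, and all 5 members were matched to such a window. GCGTG was found in 0 of the 5 and in 32.4% of 32851 RefSeq promoters, and in 4 of the 5 genes of the AhR list that rose with 79-6 (Cyp1a1, Cyp1b1, Ahrr and Tiparp, but not Nqo1). G and C made up 37.3 to 55.7% of the windows of the members and 53.7 to 73.7% of those of these 5 AhR list genes. The motif counts were not adjusted for this difference. The longer form TNGCGTG, which contains GCGTG, was found in 0 of 5 members and 5.07% of promoters. TTCNNNGAA, a palindrome read by STAT factors and by Bcl6, was found in 0 of 5 and 8.3%. Further motifs were added after the sequences had been seen. TATAA, the core of the TATA box, lay 28 to 24 bases before the start in Apol7c and 218 to 214 before it in Gpr141, and 24.9% of promoters hold it. It also lay 30 to 26 bases before the start in Cyp1a1, left in lower case above, and 29 to 25 before it in Nqo1. GGGCGG, the core read by Sp factors, lay 35 to 30 bases before the start of Alox5, and 35.7% of promoters hold it. A match is a match of letters, and a window without one says nothing of sites elsewhere.

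All values below are log2 RMA intensities, in the order replicate 1 and replicate 2, and each gene was read by 1 probe set. Levels of different probe sets are not comparable, and a probe set can also read close relatives in a gene family. In RNA from a purified but mixed cell suspension, fewer cells of a type and less RNA per cell cannot be told apart.

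Apol7c (probe set 10430186) read 8.14 and 8.44 in fresh cells, 5.89 and 6.59 with DMSO, and 10.46 and 10.71 with 79-6. It was thus lowest in both DMSO arrays, intermediate in both fresh arrays and highest in both 79-6 arrays, with no overlap between any groups. The group means were 8.29 ± 0.22, 6.24 ± 0.50 and 10.58 ± 0.18 (SD, n = 2 each). The difference between 79-6 and DMSO was 4.35 ± 0.22 (SE), or 20.3-fold, the largest rise of all genes tested. Against fresh cells the 79-6 mean was 2.29 higher, or 4.91-fold. Apol7c fell by 2.05 ± 0.22 (SE), 4.15-fold lower, between fresh cells and DMSO (limma adjusted p = 0.000866).

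Serpinb10 (probe set 10349166) read 5.76 and 5.80 in fresh cells, 6.45 and 6.62 with DMSO, and 10.71 and 10.60 with 79-6. The order was fresh, DMSO, 79-6 without overlap, and the step to 79-6 was the larger. The means were 5.78 ± 0.03, 6.54 ± 0.12 and 10.66 ± 0.07 (SD, n = 2 each). The 79-6 mean was 4.12 ± 0.08 (SE) above DMSO, or 17.4-fold, which ranks second among all genes, and 4.88 above fresh, or 29.4-fold. Serpinb10 rose by 0.76 ± 0.08 (SE), 1.69-fold, between fresh cells and DMSO (limma adjusted p = 0.000969).

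Sidt1 (probe set 10439583) read 9.14 and 9.06 in fresh cells, 8.11 and 8.02 with DMSO, and 10.13 and 10.09 with 79-6. Its groups lay in the same order as those of Apol7c, DMSO lowest and 79-6 highest, without overlap. The means were 9.10 ± 0.06, 8.06 ± 0.06 and 10.11 ± 0.03 (SD, n = 2 each). The 79-6 mean was 2.04 ± 0.07 (SE) above DMSO, or 4.13-fold, and 1.01 above fresh, or 2.01-fold. Between fresh cells and DMSO Sidt1 fell by 1.04 ± 0.07 (SE), 2.05-fold lower (limma adjusted p = 0.00014).

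Alox5 (probe set 10547153) read 6.29 and 6.89 in fresh cells, 6.60 and 6.63 with DMSO, and 8.39 and 8.45 with 79-6. Both DMSO arrays fell between the fresh arrays, and both 79-6 arrays lay above all others. The means were 6.59 ± 0.42, 6.61 ± 0.02 and 8.42 ± 0.04 (SD, n = 2 each). The 79-6 mean was 1.80 ± 0.17 (SE) above DMSO, or 3.49-fold, and 1.83 above fresh, or 3.55-fold. DMSO and fresh differed by 0.03 ± 0.17 (SE; 95% confidence interval -0.38 to 0.43; limma adjusted p = 0.946), and that difference was -0.27 without fresh replicate 1 and 0.32 without fresh replicate 2, neither past the threshold.

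Gpr141 (probe set 10407985) read 5.09 and 5.86 in fresh cells, 8.01 and 8.14 with DMSO, and 8.93 and 9.24 with 79-6. Its groups did not overlap either, but here the larger step lay between fresh cells and DMSO. The means were 5.48 ± 0.55, 8.08 ± 0.09 and 9.08 ± 0.22 (SD, n = 2 each). Gpr141 rose by 2.60 ± 0.23 (SE), 6.06-fold, from fresh to DMSO (95% confidence interval 2.06 to 3.14; limma adjusted p = 0.000345). The 79-6 mean was 1.01 ± 0.23 (SE) above DMSO, or 2.01-fold, and 3.60 above fresh, or 12.2-fold.

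**Figure D1:**
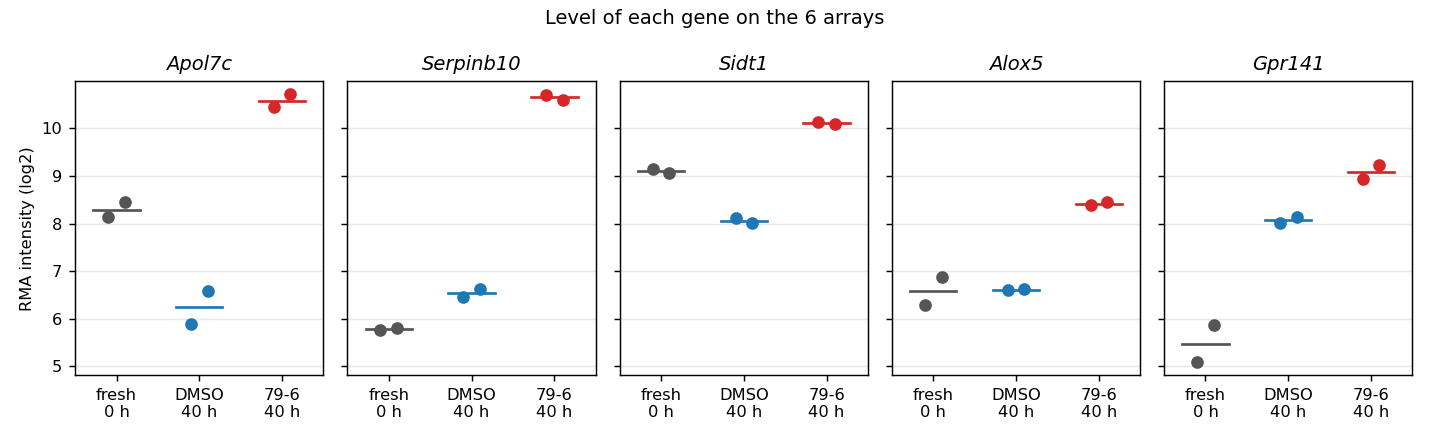
Log2 RMA intensity (vertical axis) of each of the 5 genes on the 2 fresh, 2 DMSO and 2 79-6 arrays; points are arrays and lines are group means. In each panel both 79-6 points lie above the other 4, Apol7c and Sidt1 have their lowest points with DMSO, and Gpr141 has its lowest points in fresh cells; levels are not comparable between panels.

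On all 5 genes both 79-6 arrays lay above both DMSO and both fresh arrays, as they did for 17.2% of all genes tested. The choice of the members fixes this order against DMSO, so nothing is read from it. The gap between the lowest 79-6 array and the highest DMSO array was 3.87 for Apol7c, 3.99 for Serpinb10, 1.98 for Sidt1, 1.76 for Alox5 and 0.79 for Gpr141. In the comparison of DMSO with fresh cells, 2 members rose (Serpinb10 and Gpr141), 2 fell (Apol7c and Sidt1) and Alox5 was not called. Of all genes 19.6% were called. The median over the 5 was 0.03, beside 0.02 over all genes. This comparison shares its DMSO arrays with the one that chose the members, so a low or high DMSO array enters both. Whether fresh values also entered the choice is not stated. The p-values of the members from fresh cells to DMSO may therefore not be independent of it.

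As a set of the strongest rises, the choice fits 4 of the 5 genes. In all, 11 genes had a difference between 79-6 and DMSO at least as large as that of Alox5: Apol7c, Serpinb10, Sidt1 and Alox5 themselves at ranks 1, 2, 9 and 11, Cyp1a1 (3.66), Cyp1b1 (2.80) and Ahrr (2.73) of the AhR list, and Pth (3.61), Scin (2.87), Eif2s3y (2.10) and Chga (1.96). Pth encodes parathyroid hormone, Scin an actin-severing protein, and Chga a granule protein of neuroendocrine cells. Eif2s3y, a Y-linked gene, had an SE of 0.76 and was not called (limma adjusted p = 0.181). The Y-linked genes Kdm5d (1.58 ± 0.61 SE, rank 21) and Uty (1.55 ± 0.63 SE, rank 25) were not called either (limma adjusted p = 0.207 and 0.225). The sex of the embryos did not enter the fits, and its part in these differences was not tested. Gpr141 ranked 79th, and of the 79 genes down to it 70 were neither members nor on the AhR list. Of the 74 that were not members, 64 were called higher by limma, beside 2.38% of all genes. The ranking uses the same comparison and largely fixes this count, so nothing is read from it. Just above Gpr141 stood Klf2 and Myo1f (1.01 each) and just below it Neurl3 (0.9995), Podn (0.999) and Csf2rb2 (0.998).

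**Figure D2:**
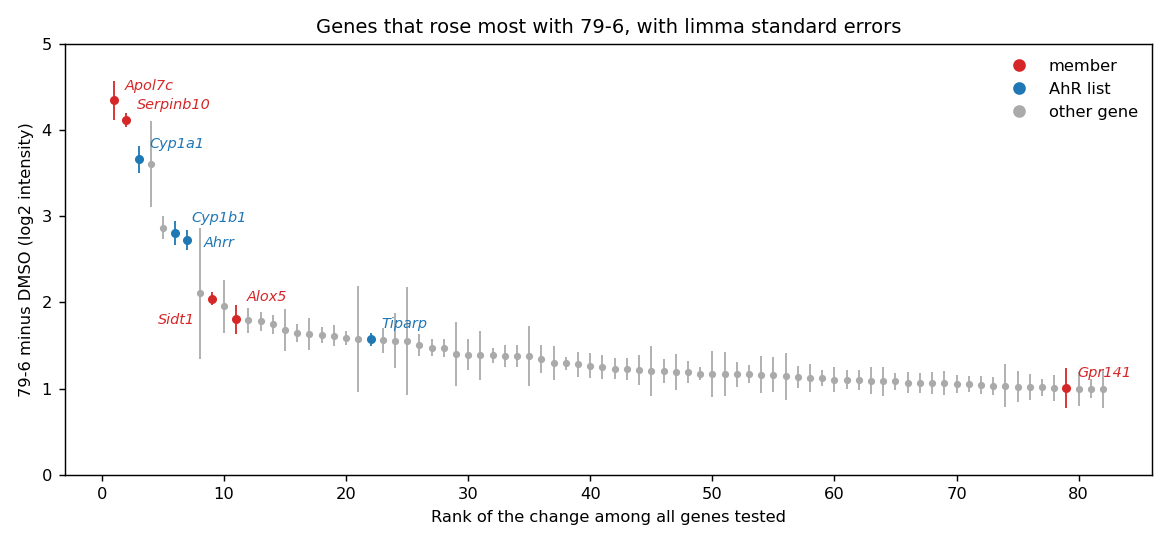
Difference between 79-6 and DMSO in log2 intensity (vertical axis) against its rank among all genes tested (horizontal axis), for the genes down to just below Gpr141; points are limma estimates and bars their SE. Members are red, genes of the AhR list blue and others grey: 4 of the 5 members lie among the first 11 genes, and Gpr141 lies at rank 79 with 1.01.

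The apolipoprotein L relatives of Apol7c were not called. Of 13 other entries of the family, 7 were measured, and by limma 0 of 7 were called higher or lower with 79-6 (0 at an unadjusted p under 0.05, and 0 with a trend and robust prior). Their median was 0.02, as over all genes. The smallest p among them belonged to Apold1, a related gene of blood vessel lining, at -0.12 ± 0.07 (SE; limma adjusted p = 0.412), followed by Apol10a at -0.12 ± 0.09 (SE; limma adjusted p = 0.485). Apol7a, a close relative, read 5.07 and 5.11 with DMSO and 5.09 and 5.14 with 79-6. Apol6, Apol7a, Apol7d, Apol10a and Apol10b read below the array medians on all arrays. Without detection calls, genes not expressed cannot be told from genes that did not change. Apol7b and Apol7e were not measured. Between fresh cells and DMSO 0 of 7 were called (2 at an unadjusted p under 0.05, 0 with a trend and robust prior, 1 with array medians set equal and 1 without either 79-6 array). In the RefSeq order the measured genes nearest to Apol7c are Apol10a and Apol10b, then Apol7a and Apol8, and none of the 4 was called with 79-6. Genes that were not measured were passed over. The third measured gene on one side, Myh9, a nonmuscle myosin heavy chain, rose by 0.34 (limma adjusted p = 0.0463).

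Among clade B serpins, 4 of the 23 measured besides Serpinb10 rose with 79-6 and 0 fell, beside 2.38% of all genes higher and 1.98% lower, with a median of 0.04. Serpinb2, an inhibitor of plasminogen activators, read 6.68 and 6.54 with DMSO and 7.61 and 7.60 with 79-6, a rise of 0.99 ± 0.15 (SE; limma adjusted p = 0.0184). Serpinb8 read 6.14 and 6.18 with DMSO and 7.07 and 7.13 with 79-6, a rise of 0.94 ± 0.07 (SE; limma adjusted p = 0.00201). Both 79-6 arrays lay above the other 4 arrays for both genes, and these are the nearest measured genes to Serpinb10 on either side in the RefSeq order. Serpinb6b rose by 0.83 (limma adjusted p = 0.00862) and Serpinb9, an inhibitor of granzyme B, by 0.46 (limma adjusted p = 0.0385). The count of 4 was 1 without either DMSO array and 2 without either 79-6 array. Serpinb8 was called in all 11 alternative fits that tested it, Serpinb2 in 7 of 11, Serpinb6b in 10 of 12 and Serpinb9 in 5 of 12. The fit of only the DMSO and 79-6 arrays and those without a fresh array are the same fit here, so these tallies count it more than once. The next measured genes beyond Serpinb2, Serpinb7 and Serpinb11, were not called, nor were Cdh7 and Cdh19 beyond Serpinb8.

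From fresh cells to DMSO 1 of the 23 serpins rose and 3 fell, with a median of -0.02, and 19.6% of all genes were called, so this count is near the background. Serpinb1a, an inhibitor of neutrophil proteases, fell by 1.80 (limma adjusted p = 0.000111), Serpinb6b by 0.59 and Serpinb9 by 0.45, whereas Serpinb8 rose by 0.35. Without fresh replicate 2 or DMSO replicate 2 the total was 2 in place of 4.

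**Figure D3:**
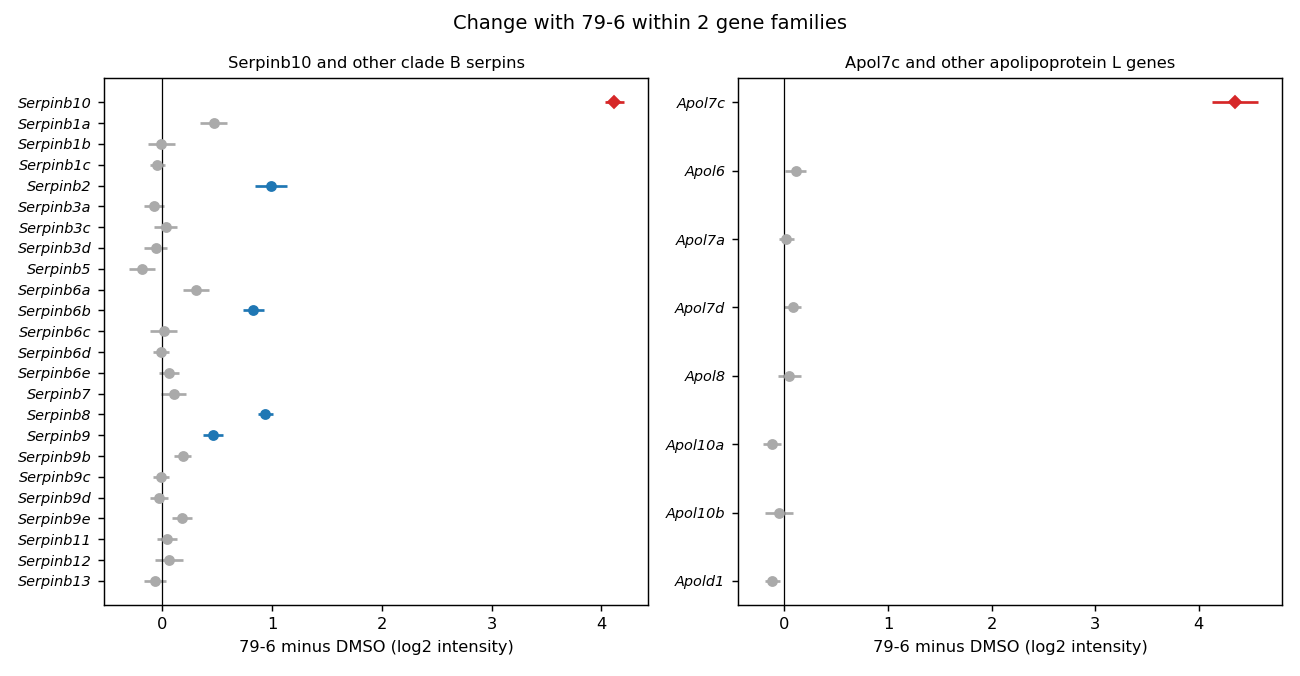
Difference between 79-6 and DMSO in log2 intensity (horizontal axis) for clade B serpins (left) and apolipoprotein L genes (right); bars are limma SE, red diamonds the chosen genes, blue points genes with an adjusted p under 0.05 and grey points the others. Serpinb10 stands at 4.12 with Serpinb2, Serpinb6b, Serpinb8 and Serpinb9 between 0.46 and 0.99, and Apol7c stands at 4.35 with its 7 relatives near 0.

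Sidt1 was set beside genes of double-stranded RNA uptake and sensing. Its paralogue Sidt2 differed by 0.01 between 79-6 and DMSO (limma adjusted p = 0.974). With 79-6, 3 of the 13 genes rose and 0 fell, beside 2.38% of all genes higher, with a median of 0.21. These were Ddx58, which encodes the cytosolic RNA sensor RIG-I (0.48, limma adjusted p = 0.0173), the related helicase Dhx58 (0.38, limma adjusted p = 0.0482) and the interferon regulator Irf7 (0.59, limma adjusted p = 0.0266). The count was 0 without DMSO replicate 1, DMSO replicate 2 or 79-6 replicate 2, 2 without either fresh array, and 7 with a trend and robust prior.

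From fresh cells to DMSO 7 of these 13 genes fell and 0 rose, beside 10.7% of all genes lower, with a median of -0.46. Ifih1, another RNA sensor, read 11.17 and 11.32 in fresh cells and 9.44 and 9.38 with DMSO, a fall of 1.84 ± 0.08 (SE; limma adjusted p = 1.97e-05). Dhx58 fell by 1.74 and Irf7 by 1.31. Sidt1 also fell in this comparison, by 1.04, while its 79-6 arrays lay above fresh cells. For Ifih1, Dhx58 and Irf7 the 79-6 arrays lay below both fresh arrays: Ifih1 read 9.73 and 9.77 with 79-6, Dhx58 9.33 and 9.50, and Irf7 10.59 and 10.72, against fresh values of 10.75 and 10.79 for Dhx58 and 11.24 and 11.50 for Irf7.

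Around Alox5, 3 of 14 measured genes of leukotriene synthesis and reception rose with 79-6 and 0 fell, beside 2.38% of all genes higher. Their median was 0.30 (0.02 over all genes). Ltc4s, which makes the first cysteinyl leukotriene from the product of Alox5, read 6.28 in both DMSO arrays and 7.06 and 6.82 with 79-6, a rise of 0.66 ± 0.10 (SE; limma adjusted p = 0.0171). The receptor Cysltr2 read 6.62 and 6.42 with DMSO and 7.48 and 7.32 with 79-6, a rise of 0.88 ± 0.13 (SE; limma adjusted p = 0.0169). Cotl1, an actin-binding protein that also binds the Alox5 protein, rose by 0.39 (limma adjusted p = 0.0309). For Ltc4s and Cotl1 both 79-6 arrays lay above all others, while for Cysltr2 they overlapped the fresh arrays at 7.10 and 7.42. Alox5ap, the membrane protein that presents arachidonate to Alox5, differed by 0.48 ± 0.13 (SE) and was not called (limma adjusted p = 0.0878). The count of 3 was 0 without either DMSO array, 1 without 79-6 replicate 2, 2 without any other single array, 5 with probe sets averaged per gene and 6 with a trend and robust prior.

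From fresh cells to DMSO 3 of the 14 genes rose and 4 fell, with a median of -0.02, beside 8.89% of all genes higher and 10.7% lower. Alox5ap rose by 0.83, from 9.34 and 9.57 to 10.18 and 10.38 (limma adjusted p = 0.00405), and Mgst2, a second enzyme able to form cysteinyl leukotrienes, rose by 0.77. Pla2g4a, the phospholipase that frees arachidonate from membranes, fell by 0.80 and Cysltr2 by 0.74. Of 7 other lipoxygenase and cyclooxygenase genes, limma called 0 in either comparison, with 1 at an unadjusted p under 0.05 in each. The gene nearest the threshold with 79-6 was Ptgs2, the inducible cyclooxygenase, at 0.66 ± 0.15 (SE; limma adjusted p = 0.055). Aloxe3, a lipoxygenase of the skin, followed at 0.29 ± 0.14 (SE; limma adjusted p = 0.298), and a trend and robust prior called 1 of the 7 with 79-6 and 0 from fresh to DMSO. A replicate block called 3 from fresh to DMSO, and 2 were called without fresh replicate 1. The 3 nearest measured genes on either side of Alox5 were not called with 79-6.

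**Figure D4:**
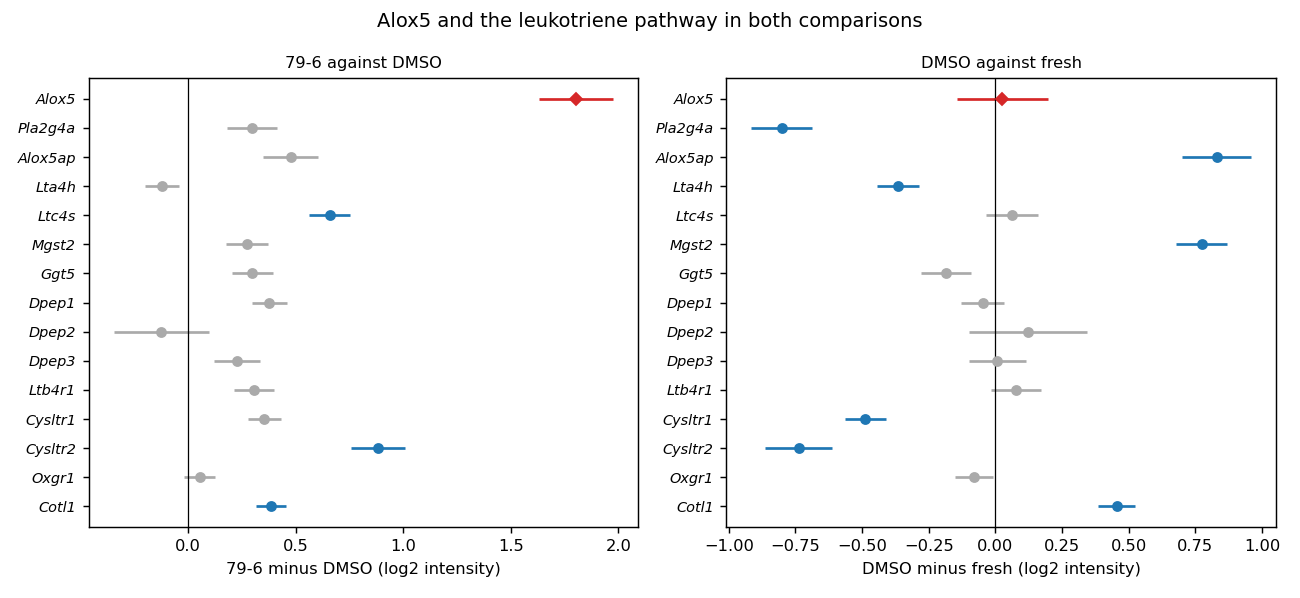
Difference in log2 intensity (horizontal axes, different ranges) of Alox5 and 14 genes of leukotriene synthesis and reception between 79-6 and DMSO (left) and between DMSO and fresh (right); bars are limma SE, the red diamond is Alox5, blue points have an adjusted p under 0.05 and grey points do not. Alox5 stands at 1.80 on the left and 0.03 on the right, where Alox5ap is at 0.83 and Pla2g4a at -0.80.

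Gpr141 was set beside 16 other orphan, purine and lipid receptors of leukocytes. Its paralogue Gpr141b, the nearest measured gene on one side, differed by 0.09 with 79-6 (limma adjusted p = 0.774). With 79-6, 3 of the 16 rose and 1 fell, beside 2.38% of all genes higher and 1.98% lower, with a median of 0.33. P2ry13, a receptor for ADP, read 8.29 and 8.44 with DMSO and 9.89 and 10.11 with 79-6, a rise of 1.63 ± 0.18 (SE; limma adjusted p = 0.0078) beside 1.01 for Gpr141. Gpr18 rose by 0.73 (limma adjusted p = 0.00732) and the lysophosphatidic acid receptor Lpar6 by 0.67 (limma adjusted p = 0.0292), while Gpr174, a receptor for lysophosphatidylserine, fell by 0.43 (limma adjusted p = 0.0314). The 4 calls were 0 without DMSO replicate 1 or 79-6 replicate 2, 1 without DMSO replicate 2 and 6 without either fresh array.

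Between fresh cells and DMSO 2 of the 16 receptors rose and 3 fell, beside 8.89% of all genes higher and 10.7% lower. Their median was 0.16. Gpr183, the oxysterol receptor, fell by 2.31, from 10.53 and 10.70 to 8.35 and 8.27 (limma adjusted p = 1.58e-05), Lpar6 rose by 1.001 and Gpr18 fell by 0.92. Gpr141 rose by 2.60 in this comparison. The total of 5 was 8 without fresh replicate 2 and 8 with a trend and robust prior.

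Of the 30 nearest measured genes, 3 on either side of each member in RefSeq, 3 rose with 79-6 and 0 fell, beside 2.38% of all genes higher. Between fresh cells and DMSO 3 of the 30 rose and 3 fell, beside 19.6% of all genes called. The 3 that rose with 79-6 are Serpinb2, Serpinb8 and Myh9, and the neighbours of Sidt1, Alox5 and Gpr141 gave 0 calls. Aoah, a lipase that inactivates bacterial endotoxin and lies near Gpr141, differed by 0.69 (limma adjusted p = 0.163).

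Likeness was measured as the root-mean-square distance between the log2 profiles of 2 genes over the 6 arrays, after each gene's own mean was subtracted. The distance keeps the size of a change and uses the arrays by which the members were chosen. A member with a very large rise can thus lie near only other genes with large rises. Cyp1a1, Pth, Cyp1b1 and Ahrr, named next, rank 3, 4, 6 and 7 among all genes by their rise with the compound. Their nearness to Serpinb10 and Apol7c is therefore largely set by the choice, and nothing is read from it. Nearest to Serpinb10 were Cyp1a1 at 0.52, Pth at 0.78 and Ahrr at 0.81. Nearest to Apol7c were Pth at 0.85 and Cyp1b1 and Cyp1a1 at 0.90 each, but these differed by -0.17, -0.02 and -0.01 from fresh cells to DMSO, where Apol7c fell by 2.05. Sidt1 lay nearest to Cd160 at 0.20, an immunoglobulin-family receptor of cytotoxic lymphocytes, then to the kinase Stk39 at 0.23 and the carbonic anhydrase Car2 at 0.28. Alox5 lay nearest to Jaml at 0.13, a junctional adhesion molecule of leukocytes, then to Stfa3 and Chad at 0.18 each. Gpr141 lay nearest to Ifitm6 at 0.19, S1pr1, the receptor that guides thymic exit, at 0.20 and Gimap4 at 0.22. Among the members themselves the smallest distance was 0.50, between Sidt1 and Alox5, and the largest was 1.97, between Apol7c and Gpr141.

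The AhR list, which the choice left out, moved as follows. Of 9 measured genes 5 rose with 79-6 and 0 fell, beside 2.38% of all genes higher. The 5 were Cyp1a1 by 3.66, Ahrr by 2.73, Cyp1b1 by 2.80, Tiparp by 1.57 and Nqo1 by 0.74. Nqo1 read 7.73 and 7.56 with 79-6, below both fresh arrays at 8.22 and 8.27. It was not called when only the DMSO and 79-6 arrays were fitted. Cyp1a1 read 5.16 and 5.44 in fresh cells, 5.32 and 5.26 with DMSO, and 9.18 and 8.72 with 79-6. Its fresh and DMSO arrays overlap, while those of Serpinb10 do not. From fresh cells to DMSO 1 of the AhR list rose and 2 fell, beside 8.89% of all genes higher and 10.7% lower. These were Tiparp at 0.58, Ahr at -1.61 and Nqo1 at -1.34.

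Markers of other cell types differed between the groups on the same arrays. Over all genes, 2.38% were called higher and 1.98% lower with 79-6, and 8.89% higher and 10.7% lower from fresh cells to DMSO. The summed linear intensity of 12 macrophage and monocyte markers was 4616 to 7640 in fresh cells, 17400 to 17910 with DMSO and 21630 to 24350 with 79-6. Such a sum is weighted to its brightest probe sets, here Lyz2, which read 8.80 and 9.55 in fresh cells, 13.07 and 13.04 with DMSO, and 13.19 and 13.43 with 79-6. From fresh cells to DMSO 6 of the 12 rose (10 without fresh replicate 2), among them Adgre1 by 1.63 and Csf1r by 1.43, in the comparison in which Gpr141 rose by 2.60. All 12 were higher in fresh replicate 2 than in fresh replicate 1, as were 14 of 14 dendritic, 7 of 7 NK and innate-lymphoid and 10 of 12 granulocyte markers. So were 6 of 8 mast cell and basophil, 4 of 8 thymic epithelial, 4 of 7 B cell, 2 of 10 T-lineage and 1 of 3 erythroid markers. The share over all genes was not computed, and fresh replicate 2 had the higher array median. Of the 5 members 4 were higher in fresh replicate 2 and Sidt1 was not. The widest gaps were in Gpr141 (5.86 against 5.09) and Alox5 (6.89 against 6.29). With 79-6, 1 of the 12 was called higher (C1qa, 0.98), a count that was 0 without any one of the DMSO or 79-6 arrays, 5 without either fresh array, 3 with a replicate block and 5 with only the 4 arrays compared.

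Of 14 dendritic cell markers 5 rose with 79-6 and 0 fell, beside 2.38% of all genes higher: the integrin Itgax by 1.14, Ccr7 by 0.80, H2-Aa by 0.72, Ccl17 by 0.54 and Fscn1 by 0.53. The count was 0 without DMSO replicate 1 or 79-6 replicate 2 and 2 without DMSO replicate 2 or 79-6 replicate 1. The summed intensity of the 14 was 6401 to 7340 in fresh cells, 6004 to 7861 with DMSO and 10400 to 10760 with 79-6. From fresh cells to DMSO 1 of the 14 rose (Ccr7 by 0.80), beside 8.89% of all genes higher. In that comparison 3 fell (Fscn1 by 1.77, Ccl22 by 0.91 and Ccl17 by 0.81), beside 10.7% lower. With 79-6, Fscn1 (8.79 and 8.90 against fresh values of 9.99 and 10.18) and Ccl17 stayed below both fresh arrays. Itgax, Ccr7 and H2-Aa lay above both. Clec9a, between 4.64 and 4.85, and Xcr1, between 5.46 and 5.82, both markers of conventional dendritic cells, showed no call in either comparison. Of 12 granulocyte markers 1 rose with 79-6 (Mmp8) and 2 fell (Mpo and Prtn3), and their sums were 1476 to 1887, 4835 to 5035 and 6653 to 8624. From fresh cells to DMSO, where Gpr141 rose, 6 of the 12 also rose and 0 fell, beside 8.89% of all genes higher. Mmp8 alone read 10.54 and 10.80 with DMSO and 11.83 and 12.10 with 79-6. The 3 granulocyte calls were 0 without DMSO replicate 1, DMSO replicate 2 or 79-6 replicate 2.

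Of 7 markers of NK and innate-lymphoid cells 3 rose with 79-6 (Nkg7 by 1.12, Klrd1 by 0.97 and Tbx21 by 0.49) and 0 fell, beside 2.38% of all genes higher. The sums of the 7 were 8500 to 9428 in fresh cells, 4228 to 4368 with DMSO and 6873 to 6906 with 79-6. Their count was 1 without DMSO replicate 1, DMSO replicate 2 or 79-6 replicate 2, and 2 without 79-6 replicate 1. From fresh cells to DMSO, the comparison in which Apol7c and Sidt1 fell, 5 of the 7 NK and innate-lymphoid markers fell and 0 rose. Their median was -0.44, and 10.7% of all genes were lower. All 8 thymic epithelial markers fell there too, with a median of -1.31. Their sums were 8458 to 8566 in fresh cells, 2485 to 3588 with DMSO and 3186 to 3230 with 79-6, and limma called 0 of 8 between 79-6 and DMSO (1 at an unadjusted p under 0.05, 0 with a trend and robust prior). The mast cell protease Cpa3 fell by 1.61 from fresh cells to DMSO and by 1.43 more with 79-6, the 1 call of 8 mast cell and basophil markers in each comparison, a count that was 2 from fresh cells to DMSO without either fresh array. Of 3 erythroid markers 2 fell from fresh cells to DMSO (1 without fresh replicate 1 or DMSO replicate 2). The 10 measured T-lineage markers summed to 67590 to 69690 in fresh cells, 44500 to 45410 with DMSO and 46220 to 47830 with 79-6. From fresh cells to DMSO 3 of the 10 rose, beside 8.89% of all genes higher: Cd2 by 3.35, Thy1 by 0.43 and Gata3 by 0.34. In the same comparison 6 fell, beside 10.7% of all genes lower: Ptcra, Il2ra, Notch1, Cd3e, Cd3g and Cd3d. With 79-6, 1 of the 10 rose (Il2ra by 0.58) and 0 fell. The part of these cells in the differences of the 5 genes was not tested.

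**Figure D5:**
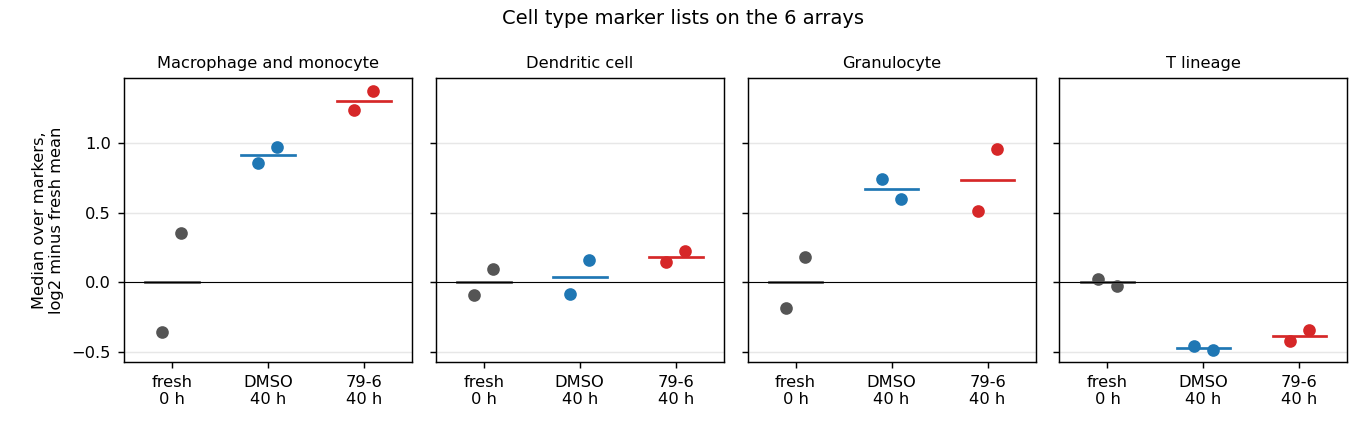
Median over each marker list of the log2 intensity minus the fresh mean of each gene (vertical axis) on the 6 arrays; points are arrays and lines group means. The macrophage and monocyte median is -0.36 and 0.36 in fresh cells, 0.85 and 0.97 with DMSO and 1.24 and 1.37 with 79-6, and the T-lineage median is lower in both 40 h groups than in fresh cells.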

How the data were processed

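The deposited values are RMA intensities on the linear scale, made with the R package oligo per the submitters' processing notes, whose versions are not stated there. The design assumed log2 values, so log2 was taken first. Genes were named from the platform annotation through probe sets with 1 symbol (21640 of 34760), and the probe set with the highest mean stood for each of 19937 genes. Limma 3.58.1 (R 4.3.3) was fitted to all 6 arrays with 1 mean per group (degrees of freedom: 3 residual, 4.24 prior); p-values are two-sided and Benjamini-Hochberg adjusted over all genes, with a threshold of 0.05, and the fit was tested on simulated data. "Called" means past it. Precision rests on 2 arrays per group, and detection calls were not used here. The members and lists were chosen with earlier results of these data known. Genes named from a list are those called with 79-6 and up to 3 with the largest called change from fresh to DMSO, or those with the smallest p; the 3 nearest genes by likeness and the 3 neighbours on either side of each member are named too. Sidt2 and single markers were chosen after their values were seen. The difference between 79-6 and fresh shares the 79-6 arrays and was not tested. Neighbour order and promoters come from RefSeq (GRCm38.p6, with 19855 genes matched by Entrez identifier). Neighbours are the nearest measured genes, and RefSeq genes without a match were passed over. No genome build is named in the labels. Alternatives were equal array medians, averaged probe sets, genes at or above the median level, a trend and robust prior, the 4 arrays compared, a replicate block and leaving out each array. Leaving out an array of the group not compared gives the same fit as the 4 arrays compared.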

Additional observations from a re-analysis of the deposited data

How the results depend on the processing

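The 5 genes kept their direction with 79-6 in all 12 alternative fits, but the choice fixed that direction, so nothing is read from it. Averaged probe sets, another prior, a replicate block or leaving out a fresh array cannot change these 5 estimates, only their errors. From fresh cells to DMSO the 5 genes kept their side of the threshold in all 12 fits. Alox5 in that comparison, never called, turned sign without fresh replicate 1 (-0.27). With a replicate block the rise of Apol7c with 79-6 was 4.35 ± 0.12 (SE) and that of Gpr141 1.01 ± 0.15. Deviations of same-numbered arrays correlated at 0.00357, 0.0948 and -0.074, so the numbers were not taken as pairs. Genes called with 79-6 numbered 1547 among genes at or above the median level, 1723 with a trend and robust prior and 93 to 661 with 1 array left out. From fresh to DMSO they numbered 2286 to 4070 with 1 array left out; with equal array medians 2155 rose and 1822 fell. Of the 19 list genes called with 79-6, 18 were called with the replicate block and 5 without DMSO replicate 1, all with the same sign. Called counts with 79-6, with 1 array left out, ran from 1 to 3 for serpins, 0 to 3 for double-stranded RNA genes, 0 to 6 for receptors and 0 to 2 for leukotriene genes. A trend and robust prior gave 7 double-stranded RNA, 6 leukotriene and 1 other lipoxygenase gene; averaged probe sets gave 5 leukotriene genes. Among genes at or above the median level 2 AhR genes and 1 other lipoxygenase gene were called. Ahrr, Cyp1a1 and Cyp1b1 lay below that level and were not in that fit. Equal medians and the replicate block also gave 1 other lipoxygenase gene. From fresh to DMSO, with 1 array left out, counts were 2 to 4 for serpins, 5 to 8 for receptors, 0 to 1 for apolipoprotein L and 0 to 2 for other lipoxygenases. Apolipoprotein L gave 1 with equal medians and with the 4 arrays compared, receptors 8 with a trend and robust prior, and other lipoxygenases 3 with the replicate block. With 2 arrays per group, 1 array decides many list calls.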
